A study of Saccharomyces cerevisiae with 176 samples.

Results

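A32 and A34 are aneuploid strains of budding yeast (Saccharomyces cerevisiae, background S288C), and they were set together against the other aneuploid strains grown beside them. They were chosen by their titles and pooled because their chromosome profiles match, so the chromosome values below chose the members and are given as a description. Together they have 12 of the 176 libraries of the series. Batch culture experiment exp6 holds 3 libraries of A32 and 3 of A34, beside 18 libraries of 6 other strains (A26, A28, A29, A30, A33 and A38, 3 each). Experiment exp5 is the repeat, with 2 libraries of A32 and 2 of A34, beside 20 libraries of 10 other strains (the same 6 and A1, A24, A35 and A36, 2 each). A phosphate-limited chemostat, in which the supply of phosphate sets the growth rate, holds 2 libraries of A34 and none of A32. They were set beside 10 libraries of A18, A22, A24, A37 and A38, the chemostat strains that carry the same library code.

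All strains of exp5 and exp6 grew exponentially in rich medium (YEPD) with 2% glucose at 25 ºC, and were taken 4 h after dilution to an OD600 of 0.1. Poly(A) RNA was sequenced. The exp5 and exp6 libraries hold no euploid strain. Exponentially growing WT cells, 3 libraries of a haploid S288C strain, and the chemostat strain 2N, 2 libraries, were used as euploid references for chromosome levels only. The WT libraries carry another library code than exp5 and exp6, and the 2N libraries another than the chemostat libraries of A34. A difference from WT or 2N therefore cannot be told apart from a difference between library sets. The gene content of the strains, their chromosome copy numbers and their mating types are not given in the sources used here. Nothing says that libraries of a strain came from separate cultures, so p-values measure only the spread between these libraries, which may be technical.

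An aneuploid cell carries some chromosomes in more or fewer copies than the rest of its genome, and transcript levels in yeast largely follow gene copy number. Beyond such dosage, yeast shifts whole groups of genes with growth and nutrients. Under stress it induces protective genes through the activators Msn2 and Msn4, which bind stress response elements, and lowers genes for making ribosomes. When amino acids are scarce, translation of the activator Gcn4 increases and Gcn4 induces genes of amino acid biosynthesis. To look beyond dosage, each gene was measured relative to the median of the genes on its own chromosome in the same library. Such values are called chromosome-relative here, and all differences are log2 differences of A32 and A34 minus the mean of the other strains.

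The read depth of the libraries is unknown, since the table holds no counts. The TPM of all genes in the table added up to between 94.95% and 99.47% of its full total in exp6, between 96.73% and 99.63% in exp5 and between 85.07% and 98.94% in the chemostat. Library A33 replicate 3 of exp6 stood apart: its lowest correlation with another A33 library was 0.971 across genes, whereas the lowest within any other strain of exp6 was 0.987. The chemostat libraries labelled A34 differed from the batch libraries of A34 on chromosomes I and IV, as described below, and values called those of A34 in the chemostat are of libraries so labelled.

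A32 and A34 carried high levels of 6 whole chromosomes. Relative to WT, the medians of chromosomes I, IV, VIII, IX, X and XI lay above 0 in all 6 libraries of exp6, with means from 0.34 for chromosome IV to 0.52 for chromosome IX. The medians of the other 10 chromosomes lay below 0, with means from -0.24 for chromosome XII to -0.11 for chromosome VI. The median of the 6 high chromosomes minus that of the other 10 was 0.55 in A32 and 0.56 in A34. In exp5 the same 6 chromosomes were high, and the gap was 0.56 in A32 and 0.58 in A34. For scale, log2 of the ratio 3/2 is 0.58, but copy numbers were not measured here. Across the 16 chromosomes, the profiles of A32 and A34 had a Pearson correlation of 0.995 in exp6 and 0.989 in exp5, which describes how they were chosen. The strain with the next most similar profile was A38, with correlations between 0.49 and 0.54.

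**Figure D1:**
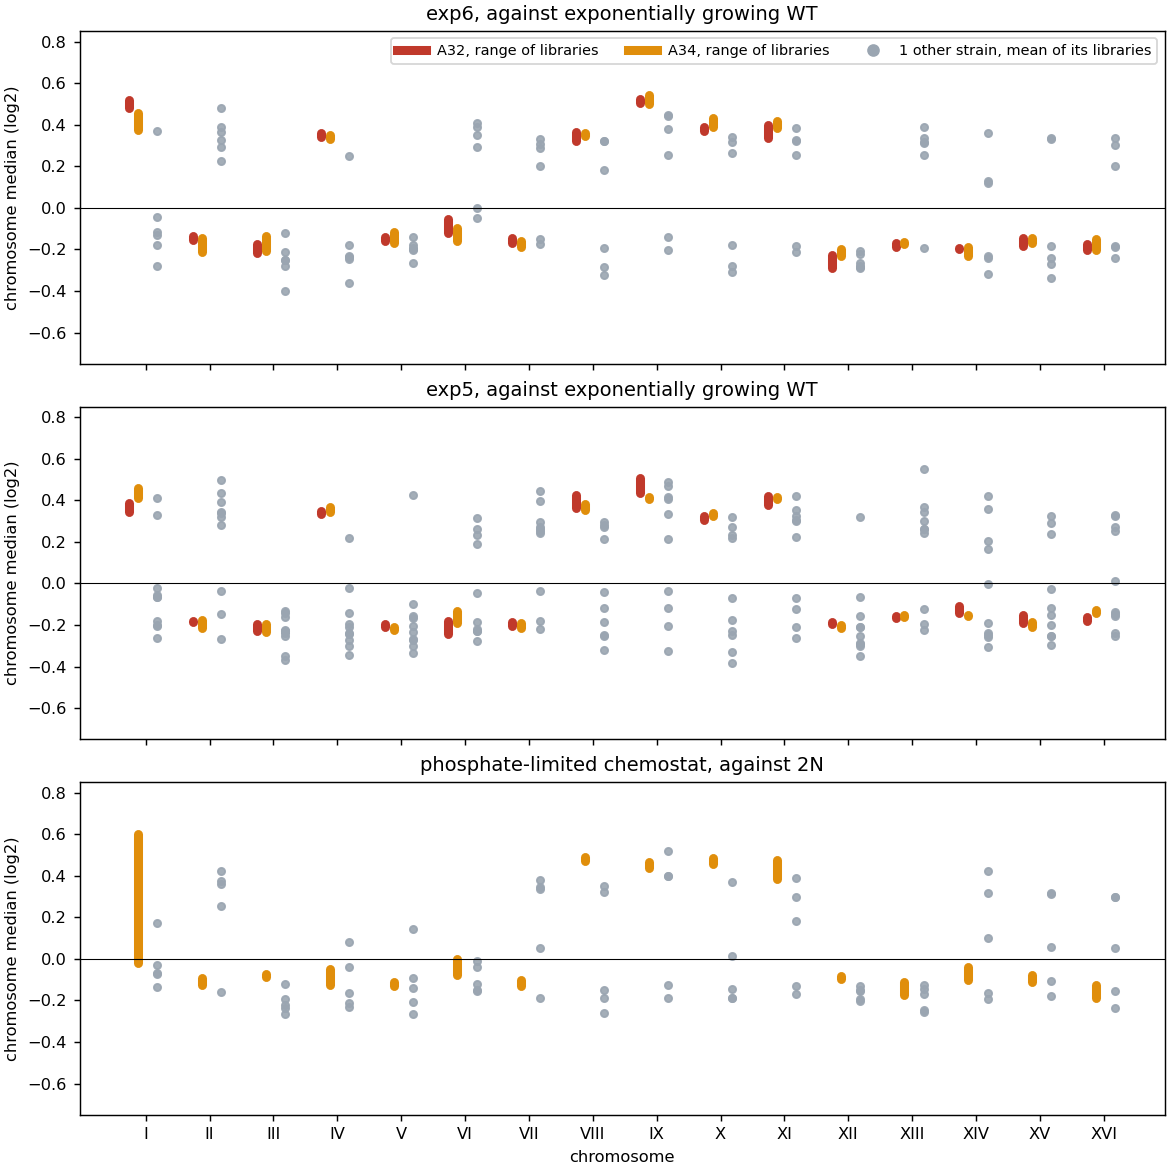
Median log2(TPM + 1) of each chromosome minus that in WT (exp6 and exp5) or 2N (chemostat), centred on the library median, by chromosome. Red and orange bars span the libraries of A32 and A34, and each grey point is the mean of 1 other strain. A32 and A34 sit close to each other in exp6 and exp5, with I, IV, VIII, IX, X and XI above 0, and chromosome IV of A34 is below 0 in the chemostat.

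Against the other strains, the profile showed both the chromosomes on which A32 and A34 were high and those on which the others were. A chromosome was called shifted where its median differed by at least 0.25 in 1 direction in every A32 and A34 library. In exp6 chromosomes I (0.52 ± 0.04), IV (0.52 ± 0.02), VIII (0.35) and X (0.36 ± 0.02, SD over 6 libraries of 2 strains) were shifted up. Chromosomes II (-0.50), VI (-0.28 ± 0.02), VII (-0.29) and XIII (-0.41) were shifted down. Chromosomes IX, with 0.25 to 0.29, and XI, with 0.22 to 0.27, lay at the edge of the threshold. The chromosomes shifted down sat at the low level of A32 and A34 themselves relative to WT, from -0.17 to -0.11, whereas the median of the other strains there lay between 0.24 and 0.34 above WT. The shifts were even along the chromosomes: split into 4 parts by gene order, chromosome IV ran from 0.50 to 0.53 and chromosome II from -0.53 to -0.41. In exp5, with other strains added, chromosomes I (0.50 ± 0.02), IV (0.56 ± 0.02), VIII (0.40), IX (0.28), X (0.41 ± 0.02) and XI (0.28 ± 0.02, SD over 4 libraries) were shifted up. Chromosomes II (-0.31), VII (-0.31) and XIII (-0.32 ± 0.02) were shifted down, and chromosome VI, at -0.16, was not.

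Relative to their chromosomes, many single genes differed. In exp6, 2397 of 5444 genes tested passed limma's test at an adjusted p under 0.05, which is 44% of all genes (1144 higher, 21%, and 1253 lower, 23%). In exp5, 2894 of 5375 genes passed, which is 53.8% (1685 higher, 31.3%, and 1209 lower, 22.5%). The comparisons share strains but no library, and 1481 genes passed in both in 1 direction, 751 higher (14.1% of 5319) and 730 lower (13.7%). These are 61.8% of the calls in exp6 and 51.2% of those in exp5, and another 91 genes passed in opposite directions. These tests treat libraries as the units and therefore hold only for these libraries of these strains, whose spread may be technical. With strain means as the units, 2 strains against 6, 4 genes passed in exp6. They were RPS9A, LEU2 and MAE1, higher, and NRG1, lower (LEU2 and MAE1 were singled out after their values were seen). LEU2, of leucine synthesis, is also a common selection marker, and MAE1 encodes malic enzyme. In exp5, 2 strains against 10, 36 passed, and NRG1 was the only gene that passed in both. These fits count A32 and A34 as 2 units although they were pooled for matching profiles, so their independence as strains is uncertain. Without A33 replicate 3, 2739 genes passed in exp6, 1298 higher and 1441 lower. As measured, without centring on chromosomes, 3601 passed in exp6, 65.1% of them higher beside 47.7% with centring, and 4072 in exp5, 43.6% of them higher beside 58.2%.

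Genes of amino acid biosynthesis were higher in A32 and A34, with the highest median of the 42 lists in exp6. Of 61 names in the list, 60 were in the table. In exp6, 53 of the 59 tested rose and 1 fell, with a median difference of 0.78 beside -0.0044 over all genes. In exp5, 50 of 58 rose and 3 fell, with a median of 0.46 beside 0.04 over all genes. In both experiments 49 rose. Over all genes 21% rose in exp6, 31.3% in exp5 and 14.1% in both. In 30 of the 59 genes all 6 A32 and A34 libraries of exp6 lay above all 18 others, beside 2.35% of all genes, and in exp5 this held for 9 of 58, beside 2.96%. The list was chosen with earlier results of these data known.

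HIS4 (YCL030C, chrIII:65934-68333), which encodes a multifunctional enzyme of histidine synthesis, had a log2(TPM + 1) between 8.49 and 8.66 (median 8.60) in A32 and A34 in exp6, against 4.36 to 7.48 (median 7.08) in the other strains. In exp5 its values were 6.15 and 6.19 in A32 and 6.13 and 6.25 in A34, against 3.10 to 6.70 (median 4.46) in the others. All A32 and A34 libraries were above all others in exp6, whereas in exp5 strain A35, with a mean of 6.65, was higher. For HIS4 and the other genes named for the largest differences, passing without overlap in exp6, relative to the chromosome, was a condition for naming them. The chromosome-relative difference of HIS4 was 2.02 ± 0.05 in exp6 (SE, adjusted p = 1.3e-17) and 1.73 ± 0.06 in exp5 (adjusted p = 2.3e-13, limma). With strain means as the units the adjusted p of HIS4 was 0.387 in exp6. The low end of the other strains in exp6 was A29 and A33, with means of 4.46 and 4.76, and the remaining 4 ranged from 6.87 to 7.36.

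Named genes of lysine, arginine and leucine synthesis were higher as well. LYS20 (YDL182W, chrIV:133437-134723), a homocitrate synthase that opens the lysine pathway, had 9.48 to 9.90 in A32 and A34 in exp6, against 6.65 to 8.41 in the other strains. In exp5 LYS20 had 8.73 and 8.82 in A32 and up to 9.02 in A34, against 6.84 to 8.28 in the others, so the groups did not overlap in either experiment. Its chromosome-relative differences were 1.40 ± 0.08 and 0.97 ± 0.05 (adjusted p = 2.8e-12 and 2.1e-10). The second homocitrate synthase gene LYS21, which is similar in sequence, differed by 1.26 ± 0.05 in exp6 and 0.93 ± 0.06 in exp5. LYS1 (YIR034C, chrIX:419615-420736), which encodes the enzyme of the last step to lysine, differed by 1.93 ± 0.04 and 1.504 ± 0.08. ARG1, argininosuccinate synthetase, had 7.69 to 8.51 (median 8.08) in A32 and A34 in exp6, against 4.04 to 7.24 (median 6.58) in the others, and differed by 2.13 ± 0.06. In exp5 ARG1 differed by 2.11 ± 0.07, and A35, with a mean of 7.15, again lay above A32 (5.88) and A34 (5.99). LEU1, isopropylmalate isomerase of leucine synthesis, differed by 1.95 ± 0.04 in exp6 and 1.58 ± 0.05 in exp5. ARG3, ornithine carbamoyltransferase, differed by 1.98 ± 0.13 in exp6 and was below the filter on low values in exp5.

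Neighbours of this group moved too. RTC2, which encodes a transporter of basic amino acids in the vacuole membrane, differed by 1.93 ± 0.09 in exp6 and 0.71 ± 0.12 in exp5. SNZ1 and SNO1, adjacent genes of vitamin B6 synthesis that are read in opposite directions, differed by 2.59 ± 0.07 and 2.43 ± 0.10 in exp6 and by 2.61 ± 0.06 and 3.03 ± 0.12 in exp5. SNZ1 belongs to a family of similar genes, among which reads may be split with some error. Its relative SNZ3 on chromosome VI, which is nearly identical to another copy, went the other way, with a difference of -2.08 ± 0.25 in exp6, where its level was 0.00 to 1.55 in A32 and A34 and 1.36 to 4.28 in the others.

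Promoter letters are shown for HIS4, LYS1 and SNO1, because their genes are named here and the window holds the Gcn4 core TGACTC. The sequences are from RefSeq assembly R64, where 5981 of 5989 nuclear genes with the same locus tag have the coordinates of the deposited table's annotation. Each line gives bases 250 to 101 before the start codon, 5′ to 3′ toward the gene, with TGACTC or its other-strand form GAGTCA in capitals.
HIS4 chrIII:68434-68583, minus strand: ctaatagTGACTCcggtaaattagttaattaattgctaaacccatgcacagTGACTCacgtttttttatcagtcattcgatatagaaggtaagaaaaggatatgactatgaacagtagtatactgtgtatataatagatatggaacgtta
LYS1 chrIX:420837-420986, minus strand: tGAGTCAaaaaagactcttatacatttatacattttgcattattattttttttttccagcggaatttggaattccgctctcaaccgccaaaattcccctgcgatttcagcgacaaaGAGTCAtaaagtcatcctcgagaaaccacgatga
SNO1 chrXIII:458060-458209, minus strand: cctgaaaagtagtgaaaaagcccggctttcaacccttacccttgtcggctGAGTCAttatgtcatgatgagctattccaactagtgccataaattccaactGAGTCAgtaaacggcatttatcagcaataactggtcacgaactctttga
In windows of 250 bases before to 50 bases after the start codon, searched on both strands, TGACTC was found in 25 of the 49 list members that rose in both experiments, which is 51.0%, beside 8.09% of all 6663 promoters. It was also found in 8 of the 11 members that did not rise in both. Over all genes that rose in both it was found in 14.4%, and over those that fell in both in 5.78%. The windows of ARG1 and LYS20 hold no TGACTC. A match is a description of the letters and does not show that a factor binds there.

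The mean of the list by strain put both strains above the others in exp6 but not above all of them in exp5. Averaged over its 59 genes, the chromosome-relative level was 2.67 in A32 and 2.46 in A34 in exp6, against 1.26 (A33) to 1.97 (A30) in the other 6 strains. In exp5 it was 2.09 in A32 and 2.13 in A34, against at most 1.67 (A1) in 9 other strains, and A35 was above both with 2.23. The median difference of the list stayed between 0.69 (without A33) and 0.85 (without A30) when each other strain was left out of exp6, and between 0.44 and 0.55 in exp5, an alternative added after the data were seen. A list of 12 marker genes of strain construction, 4 of which the amino acid list also holds, moved alongside. Of its 9 members tested, 5 rose in exp6, with a median of 0.44, and 7 rose in exp5, with a median of 0.63, the highest of the 42 lists there. Over all genes 21% rose in exp6 and 31.3% in exp5. Its mean was 1.35 in A34 and 1.62 in A32 in exp6, against 0.42 to 1.11 in the other strains, and in exp5 only A35, with 1.47, lay above A32 (1.26) and A34 (1.31). Its part in the amino acid result was not tested.

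**Figure D2:**
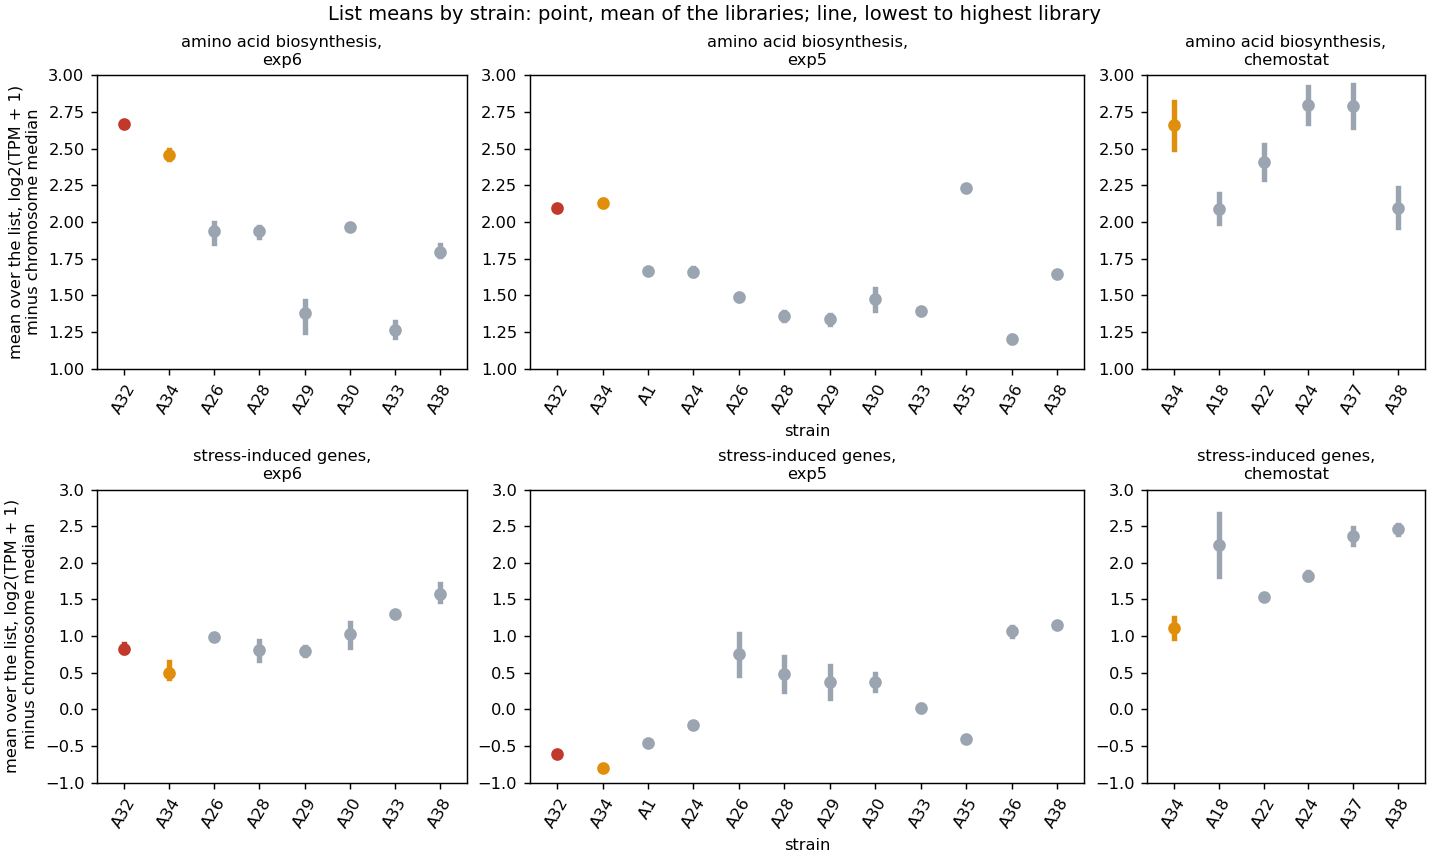
Mean chromosome-relative log2(TPM + 1) over the amino acid biosynthesis list (top) and the stress-induced list (bottom) by strain in exp6, exp5 and the chemostat, where points are means of the libraries and lines run from the lowest to the highest library. For amino acid biosynthesis A32 (2.67) and A34 (2.46) lie above the other 6 strains in exp6, and A35 (2.23) lies above both in exp5. For stress-induced genes A32 (-0.61) and A34 (-0.80) are the lowest strains in exp5.

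Purine synthesis genes were higher as well. In exp6, 13 of 19 rose and 2 fell, with a median of 0.34, and in exp5 17 rose and 1 fell, with a median of 0.38. Of these, 13 rose in both. Over all genes 21% rose in exp6, 31.3% in exp5 and 14.1% in both. The mean of the list was 1.96 to 2.17 in A34 and A32 in exp6, against 1.35 to 1.85 in the other strains, and 2.23 to 2.29 in exp5, against 1.67 to 2.16. All other strains, A35 included, lay below both. ADE12, adenylosuccinate synthase, differed by 1.08 ± 0.09 in exp6 and 0.72 ± 0.04 in exp5, and FCY2, the purine and cytosine permease, by 0.94 ± 0.09 and 0.74 ± 0.07. IMD2, IMP dehydrogenase of GTP synthesis, differed by 0.81 ± 0.06 and 0.86 ± 0.03, and is nearly identical to other IMD genes.

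Genes that yeast expresses when oxygen or heme is low included ANB1, the named gene with the largest increase in exp6. ANB1 (YJR047C, chrX:524908-525381), the hypoxic form of translation factor eIF5A, had 7.21 to 7.57 (median 7.38) in A32 and A34 in exp6, against 1.33 to 6.02 (median 3.28) in the other strains. In exp5 it had 7.57 and 7.42 in A32 and 7.42 and 7.39 in A34, against 2.76 to 6.44 (median 4.38). No library of another strain reached A32 or A34 in either experiment, but in exp6 passing without overlap relative to the chromosome was a condition for naming ANB1. In exp5 such a lack of overlap, A32 and A34 above, held for 2.96% of all genes. The closest strains were A26 (5.89) and A38 (5.82) in exp6 and A35 (6.30) and A38 (6.17) in exp5. The chromosome-relative difference was 3.01 ± 0.15 in exp6 (adjusted p = 3.7e-13) and 2.501 ± 0.11 in exp5 (adjusted p = 1.1e-11), and with strain means as the units it did not pass in exp6 (adjusted p = 0.287). ANB1 has a close paralog, so its reads may be assigned with some error. AAC3 (YBR085W, chrII:415983-416906), the mitochondrial ADP/ATP carrier made without oxygen, had 4.63 to 4.84 in A32 and A34 in exp6, against 2.31 to 4.33, and its chromosome-relative values also did not overlap in either experiment. AAC3 differed by 1.71 ± 0.14 and 1.47 ± 0.10 (adjusted p = 1.4e-09 and 3e-09). TIR1, a cell wall mannoprotein gene induced without oxygen, differed by 1.54 ± 0.08 and 1.36 ± 0.08, and its level in A30 was as high (7.58 in exp6 and 6.70 in exp5).

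The hypoxic and heme list as a whole, ANB1, AAC3 and TIR1 included, rose only in part. In exp6, 8 of 20 members tested rose and 3 fell, with a median of 0.13, and in exp5 10 rose and 5 fell, with a median of 0.13, and 5 rose in both. Over all genes 21% rose and 23% fell in exp6, 31.3% rose and 22.5% fell in exp5, and 14.1% rose in both. The list mean of A34 and A32 was 0.56 to 0.69 in exp6, against 0.03 to 0.26 in the others, and 0.54 to 0.57 in exp5, against -0.10 to 0.35. Promoter letters of ANB1 and AAC3 are shown because these are the members with the largest increase whose groups did not overlap in either experiment. The capitals mark ATTGTT, the core of sites for the hypoxic repressor Rox1, a motif that was added to the search after the data were seen.
ANB1 chrX:525482-525631, minus strand: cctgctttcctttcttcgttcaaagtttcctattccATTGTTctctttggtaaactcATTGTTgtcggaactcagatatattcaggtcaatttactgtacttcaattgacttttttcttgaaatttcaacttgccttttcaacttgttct
AAC3 chrII:415733-415882, plus strand: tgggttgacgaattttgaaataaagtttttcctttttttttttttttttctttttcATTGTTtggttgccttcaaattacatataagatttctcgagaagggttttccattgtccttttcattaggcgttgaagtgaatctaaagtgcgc
ATTGTT was found in 4 of the 5 members that rose in both experiments and in 9 of the other 17, beside 34.3% of all promoters.

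**Figure D3:**
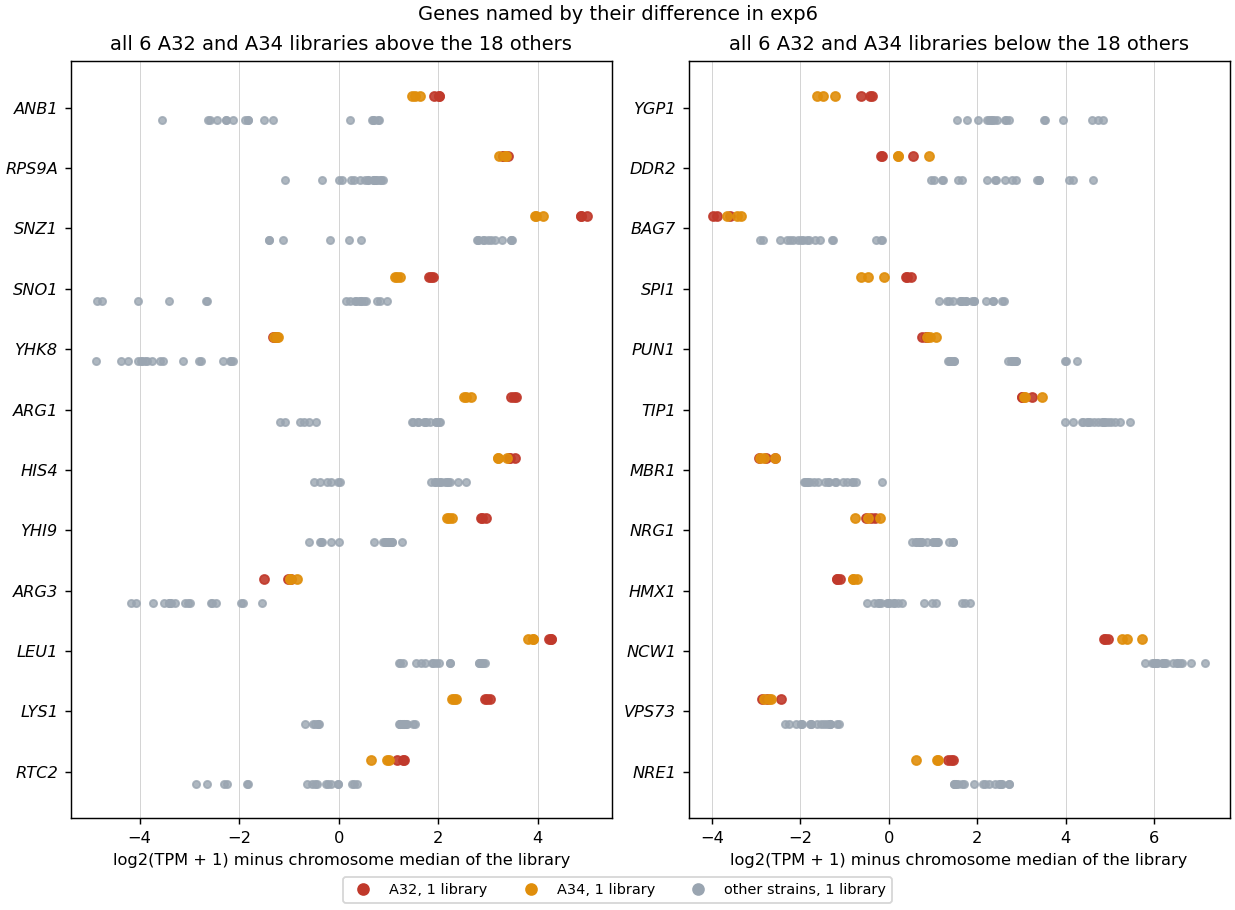
Chromosome-relative log2(TPM + 1) in each library of exp6 (x axis) for the 12 genes with the largest increase (left) and the 12 with the largest decrease (right) among those whose A32 and A34 libraries all lay above or below the 18 others. The choice of genes fixes that the groups do not overlap; the figure shows by how much, from 3.01 for ANB1 to -3.87 for YGP1, and that the other strains spread widely for SNO1 and SNZ1.

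The stress-induced list was lower. In exp6, 57 of 82 members tested fell and 7 rose, with a median of -0.37. In exp5, 65 of 77 fell and 1 rose, with a median of -0.86, and 55 fell in both. Over all genes 23% fell and 21% rose in exp6, 22.5% fell and 31.3% rose in exp5, and 13.7% fell in both. In exp6 without A33 replicate 3, 58 fell and 7 rose. By strain, the list mean in exp6 was 0.82 in A32 and 0.50 in A34, against 0.79 (A29) to 1.57 (A38) in the other strains, so A32 lay within their range. In exp5 it was -0.61 in A32 and -0.80 in A34, against -0.46 (A1) to 1.15 (A38), and all 10 other strains were higher. In exp5 all A32 and A34 libraries lay below all others in 17 members, beside 2.72% of all genes, and in exp6 in 7, beside 0.808%. The size of the difference changed between experiments: of 77 members tested in both, 51 passed a test of the difference between exp6 and exp5 over the 8 shared strains, beside 18.9% of all genes.

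YGP1 (YNL160W, chrXIV:336545-337609), a secreted glycoprotein gene that is induced by nutrient limitation and stress, had the largest decrease among the named members in exp6. It had 3.64 to 4.56 (median 4.13) in A32 and A34 in exp6, against 6.68 to 9.70 (median 7.82) in the other strains. In exp5 it had 2.77 and 3.01 in A32 and 2.85 and 2.86 in A34, against 2.59 to 8.95 (median 7.43) in the others. In exp5 A35, with a mean of 2.74, was as low, and A24, with 3.91, came near. The chromosome-relative difference was -3.87 ± 0.07 in exp6 (adjusted p = 6e-20) and -3.53 ± 0.06 in exp5 (adjusted p = 1.5e-16). With strain means as the units YGP1 did not pass in exp6 (adjusted p = 0.109).

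DDR2 (YOL052C-A, chrXV:231570-231755), a small gene that many stresses induce, had 4.80 to 5.99 (median 5.35) in A32 and A34 in exp6, against 5.60 to 10.25 (median 7.39) in the others. In exp5 it had 1.81 and 1.83 in A32 and was listed at 0 in both A34 libraries, against 0.00 to 7.18 in the others, so that the groups overlapped. DDR2 differed by -2.30 ± 0.15 and -1.95 ± 0.37 (adjusted p = 2.7e-11 and 0.00032). With A32 alone against the other strains, DDR2 differed by -1.01 in exp5 and did not pass (adjusted p = 0.125, limma). SPI1, a cell wall protein gene of the same response, differed by -1.83 ± 0.12 and -1.21 ± 0.10, and MBR1, a gene outside the list with a role in mitochondrial function, by -1.45 ± 0.10 and -1.32 ± 0.10. HSP42 (YDR171W, chrIV:806621-807748), a small heat shock protein that gathers misfolded proteins, lies on chromosome IV, where A32 and A34 are high. Its level as measured, 7.56 to 8.19 in A32 and A34 and 7.60 to 9.15 in the others, overlapped in exp6, and relative to its chromosome it differed by -0.89 ± 0.07 without overlap. In exp5 HSP42 had 4.87 and 5.02 in A32 and 4.58 and 4.57 in A34, against 4.56 to 8.03 in the others, with a difference of -2.43 ± 0.12.

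Not all stress genes went down in both experiments. CTT1, the cytosolic catalase, had 5.90 to 6.57 (median 6.40) in A32 and A34 in exp6, against 3.94 to 6.61 (median 5.22), and rose by 1.33 ± 0.08 (adjusted p = 1.7e-11). In exp5 CTT1 had 2.83 and 2.81 in A32 and 2.27 and 2.56 in A34, against 2.42 to 4.61, a difference of -0.44 ± 0.19 that did not pass (adjusted p = 0.062). HXK1, the hexokinase that glucose represses, fell by 1.39 on the log2 scale in exp6 and by 3.81 in exp5, where it had 2.17 to 2.53 in A32 and A34 and 4.39 to 8.20 in the others. TPS1, trehalose-6-phosphate synthase, differed by -0.46 ± 0.07 in exp6 and -1.30 ± 0.09 in exp5, and the membrane stress protein gene HSP12 by -1.34 ± 0.08 and -0.48 ± 0.08. The difference between experiments passed for CTT1 (1.84), HXK1 (2.94), TPS1 (1.05) and HSP12 (-0.48).

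Promoter letters of DDR2 and HSP42 are shown as members of this list with several matches to AGGGG, the core of the stress response element, which is in capitals together with its other-strand form CCCCT.
DDR2 chrXV:231856-232005, minus strand: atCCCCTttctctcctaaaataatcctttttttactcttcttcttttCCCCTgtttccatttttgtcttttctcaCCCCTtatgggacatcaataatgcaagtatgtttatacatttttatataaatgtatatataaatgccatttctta
HSP42 chrIV:806371-806520, plus strand: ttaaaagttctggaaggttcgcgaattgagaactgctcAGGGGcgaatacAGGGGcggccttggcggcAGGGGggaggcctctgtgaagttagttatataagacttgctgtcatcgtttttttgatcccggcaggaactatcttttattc
AGGGG was found in 34 of the 55 members that fell in both experiments, which is 61.8%, and in 16 of the other 29, beside 21.4% of all promoters. Over all genes that fell in both it was found in 39.8%, and over all that rose in both in 13.7%. The window of YGP1 holds no AGGGG.

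NRG1 (YDR043C, chrIV:542674-543369), a repressor that acts in glucose repression, was the gene whose decrease also passed with strain means as the units in both experiments. It had 4.90 to 5.55 (median 5.23) in A32 and A34 in exp6, against 5.28 to 6.80 (median 5.83) in the others. In exp5 it had 4.51 and 4.46 in A32 and 3.94 and 3.80 in A34, against 4.49 to 6.25 (median 5.16). As measured the groups overlapped slightly, and relative to chromosome IV they did not in either experiment, which in exp6 was a condition for naming NRG1. The difference was -1.38 ± 0.08 in exp6 and -1.56 ± 0.11 in exp5 with libraries as the units (adjusted p = 1.2e-11 and 3.1e-09). With strain means the adjusted p was 0.0433 in exp6 and 0.0403 in exp5, in fits that count the matching strains A32 and A34 as 2 units.

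RPS9A (YPL081W, chrXVI:404950-406044), 1 of a pair of genes for small subunit protein S9, was the other named gene that passed with strains as the units in exp6 (adjusted p = 0.0111). It had 8.22 to 8.46 (median 8.39) in A32 and A34, against 4.23 to 6.24 (median 5.60) in the other 6 strains, a difference of 2.90 ± 0.12. In exp5 RPS9A had 8.34 and 8.17 in A32 and 8.35 and 8.23 in A34, and A1 (8.38), A36 (8.44) and A35 (7.62) were as high or nearly so, while the remaining 7 strains had means of 4.96 to 6.20. The difference in exp5 was 2.15 ± 0.08. RPL7B differed by 1.85 ± 0.07 and 2.08 ± 0.07, RPL9B by 1.13 ± 0.12 and 1.28 ± 0.03, and RPS22B by -1.79 ± 0.07 and -1.88 ± 0.05. Each of these has a near-identical paralog, and how reads were split between paralogs is uncertain.

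Most ribosomal protein genes did not pass in exp6, and most rose in exp5. In exp6, 16 of 81 genes of the large subunit fell and 3 rose, with a median of -0.08, and 13 of 56 of the small subunit fell and 2 rose, with a median of -0.09. Over all genes 23% fell in exp6 and 21% rose. Both medians were above 0 as measured, at 0.09 and 0.05, and the 16 of the large subunit became 5 to 27 and the 13 of the small subunit 6 to 19 when 1 other strain was left out. In exp5, where 31.3% of all genes rose, 57 of 81 rose and 1 fell, with a median of 0.15, and 42 of 56 rose and 2 fell, with a median of 0.15. RPL3 differed by 0.18 ± 0.10 in exp6, which did not pass (adjusted p = 0.16), and by 0.34 ± 0.03 in exp5. Most ribosome biogenesis genes did not pass in exp6, with 11 of 124 higher and 15 lower and a median of -0.0047 beside -0.0044 over all genes. In exp5 85 rose and none fell, with a median of 0.19. The median in exp5 was 0.04 as measured. NOP1, which methylates ribosomal RNA, differed by -0.16 ± 0.06 in exp6 relative to chromosome IV but by 0.48 as measured, and by 0.06 ± 0.03 in exp5, which did not pass. By strain, the list means of ribosome biogenesis were 1.29 in A32 and 1.34 in A34 in exp6, against 0.98 to 1.58 in the others, and 1.87 and 1.94 in exp5, against 1.23 to 1.97.

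**Figure D4:**
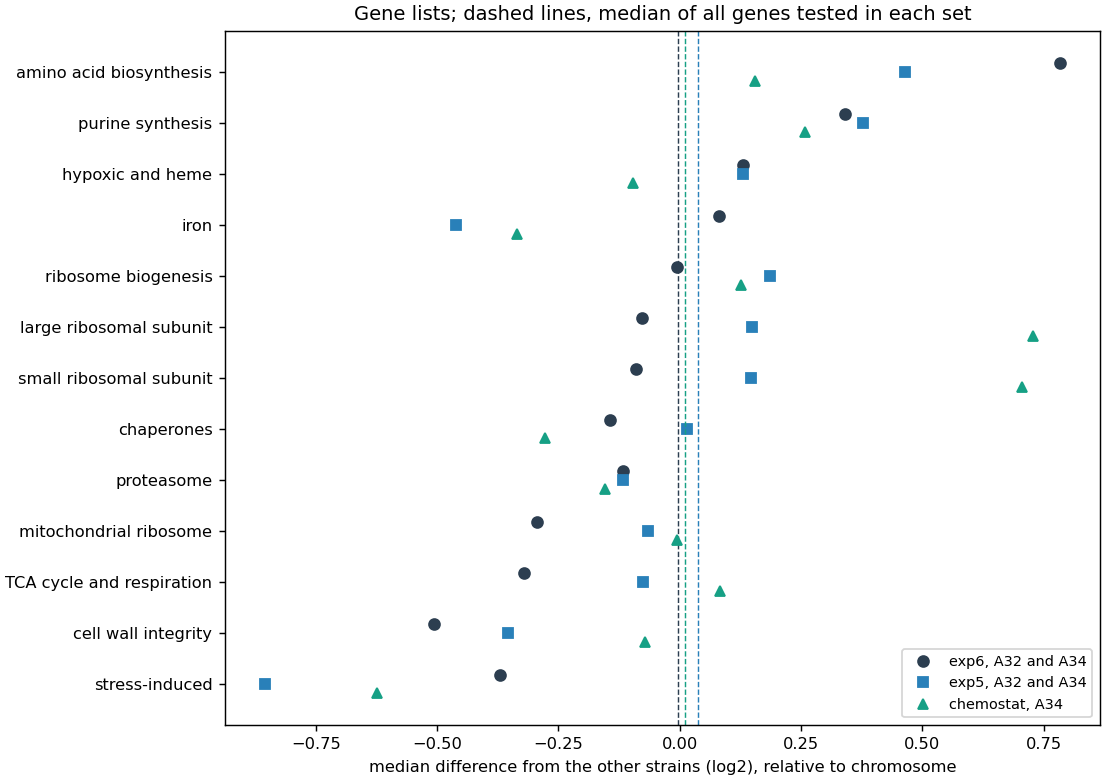
Median chromosome-relative difference from the other strains over 13 gene lists (x axis, log2) in exp6, exp5 and the chemostat, with dashed lines at the median of all genes tested. Amino acid biosynthesis (0.78 and 0.46) and purine synthesis (0.34 and 0.38) lie to the right in both batch experiments, stress-induced (-0.37 and -0.86) and cell wall integrity genes (-0.51 and -0.35) to the left, and the ribosomal lists change side between them.

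Cell wall integrity genes were lower in both experiments, and genes of respiration and the mitochondrial ribosome were lower in exp6. Of the cell wall integrity list, 28 of 39 fell and 2 rose in exp6, with a median of -0.51, and 24 of 38 fell and 6 rose in exp5, with a median of -0.35. In both, 23 fell. Over all genes 23% fell in exp6, 22.5% in exp5 and 13.7% in both. The difference between experiments passed in 10 of 38 members, beside 18.9% of all genes. Cell wall list means of all 6 other strains in exp6 lay above those of A32 and A34. For exp5 this held for 9 of the 10 other strains, and A1 (1.35) lay above A34 but below A32 (1.37). PIR3, a structural cell wall protein gene, differed by -1.69 ± 0.11 and -0.75 ± 0.12. PUN1, a plasma membrane protein gene, had 5.49 to 5.95 in A32 and A34 in exp6, against 5.94 to 8.92 in the others, and differed by -1.67 ± 0.05 in exp6 and -1.37 ± 0.08 in exp5, without overlap relative to the chromosome. TIP1, a mannoprotein gene of the cell wall, differed by -1.58 ± 0.08 and -0.74 ± 0.05, and NCW1, another wall protein gene, by -1.13 ± 0.08 and -0.79 ± 0.04. Of the tricarboxylic acid cycle and respiration list, 41 of 54 fell and 1 rose in exp6, with a median of -0.32, and 22 of 53 fell and 4 rose in exp5, with a median of -0.08. The difference between experiments passed in 18 of 53 members. By strain, the mean of this list in exp6 was 1.93 in A32 and 1.67 in A34, and A29 (1.87) lay below A32. Of 66 genes of the mitochondrial ribosome, 52 fell and none rose in exp6, with a median of -0.29, where 23% of all genes fell. The list means there were 0.88 in A32 and 0.75 in A34, and A30 (0.89) was close to A32. In exp5 14 fell and 2 rose, with a median of -0.07, beside 22.5% of all genes that fell, and the list means of A32 (1.203) and A34 (1.13) lay within the range of the other strains (0.98 to 1.52). The difference between experiments passed in 17 of 66 members. CIT2, the peroxisomal citrate synthase, rose by 0.87 ± 0.08 in exp6 without overlap and differed by 0.04 ± 0.08 in exp5, and the difference between experiments was 0.91.

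Smaller groups were mixed. The counts below stand beside 23% of all genes that fell and 21% that rose in exp6. In exp5 22.5% of all genes fell and 31.3% rose. Of 36 genes of the proteasome and its regulator, 15 fell and none rose in exp6 and 24 fell and 1 rose in exp5, with a median of -0.12 in both. PRE4, a subunit of the proteasome core, differed by -0.31 ± 0.05 in exp6. Of 33 chaperone genes, 16 fell and 5 rose in exp6 and 9 fell and 13 rose in exp5. Iron genes were divided in exp6, with 12 of 30 higher and 9 lower, beside 21% and 23% of all genes. A32 and A34 themselves lay apart in exp6, with iron list means of 0.13 in A32 and 0.73 in A34, against -0.02 to 0.97 in the other strains. In exp5 20 of 28 iron genes fell and 4 rose, beside 22.5% and 31.3% of all genes, with list means of -0.32 in A32 and -0.19 in A34, against -0.18 to 0.97. FET4, a low-affinity iron transporter gene, differed by 1.15 ± 0.05 in exp6 and 0.44 ± 0.06 in exp5, and ISU2, a scaffold gene of iron-sulfur cluster assembly, by 1.05 ± 0.10 and 0.79 ± 0.04. Of 24 phosphate genes 10 fell in each experiment, and 4 rose in exp6 and 6 in exp5. PHO84 (YML123C, chrXIII:24037-25800), the high-affinity phosphate transporter, had 2.38 to 3.77 (median 2.99) in A32 and A34 in exp6, against 0.88 to 7.16 (median 4.56) in the others, where A26, with a mean of 1.16, was lower. PHO84 differed by -1.15 ± 0.10 in exp6 and -2.75 ± 0.05 in exp5, where A26 (1.64) lay between A32 (1.42) and A34 (2.33). The other 25 lists, marker genes of strain construction included, had medians between -0.49 and 0.44 in exp6 and between -0.77 and 0.63 in exp5.

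Mating type markers divided the strains and moved with the comparison. A haploid yeast cell expresses either a-specific or alpha-specific genes together with haploid-specific genes for mating, and a cell with both mating type alleles represses all of these through the a1-alpha2 repressor. In exp6 the summed TPM of 6 a cell markers was 35.3 to 71.0 in A32 and 39.2 to 43.7 in A34, against 1663 to 1988 in A28 and 12.6 to 35.2 in the other 5 strains. The sum of 4 alpha cell markers was 12.3 to 19.1 in A32 and 21.7 to 26.0 in A34, against 6049.5 to 8506 in A26, A30 and A38 and 12.9 to 39.3 in A28, A29 and A33. The sum of 7 genes repressed by a1-alpha2 was 35.8 to 40.6 in A32 and 31.2 to 33.3 in A34, against 322 to 719 in A26, A28, A30 and A38 and 9.44 to 19.2 in A29 and A33. A32 and A34 were thus low for all 3 sets, like A29 and A33, and no marker was at 0 in any of their libraries. In WT the sums were 3024 to 3078, 22.9 to 26.1 and 595 to 605 for the same 3 sets.

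The mating genes gave some of the largest differences of the comparison, and those rest on the other strains that express them. All 9 genes of the alpha list fell in exp6, with a median of -3.13, and all 7 tested fell in exp5, with a median of -2.05. Of 16 haploid-specific genes 15 fell in exp6, with a median of -1.60, and 9 of 12 fell in exp5, with a median of -0.60. Over all genes 23% fell in exp6 and 22.5% in exp5. Some of these genes passed the filter on mean level only through the strains that express them. STE3, for example, had 0.68 to 2.26 TPM in A32 and A34 in exp6 and up to 427.64 in the others. For such genes the direction was fixed by the filter, so these counts are a description. MF(ALPHA)1, an alpha-factor gene, differed by -4.80 ± 0.16 in exp6, with 1.16 to 3.42 in A32 and A34 and 1.46 to 12.51 in the others, so that the ranges overlapped. GPA1, the G protein alpha subunit of the pheromone pathway, differed by -2.20 ± 0.11, and FUS3, its kinase, by -2.45 ± 0.12. IME4, which methylates messenger RNA and is repressed in haploids, was higher, with 3.88 to 4.08 in A32 and A34 in exp6 and 0.00 to 4.58 (median 0.20) in the others, a difference of 2.64 ± 0.08. IME4 has an antisense RNA, and the labels do not say whether the counting used strand. In such bulk RNA, fewer cells that express a gene and less RNA per cell cannot be told apart. The part of mating type in the other differences was not tested. In the amino acid list, A29 (1.38) and A33 (1.26), which had low markers too, had the lowest list means of exp6. In exp5 strains with low markers lay at both ends of the other strains. A35 (2.23), A1 (1.67) and A24 (1.66) had the highest list means, and A36 had the lowest. A29 had 1.33 and A33 had 1.39 there. The strains with high markers in exp5 ran from 1.36 (A28) to 1.64 (A38).

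**Figure D5:**
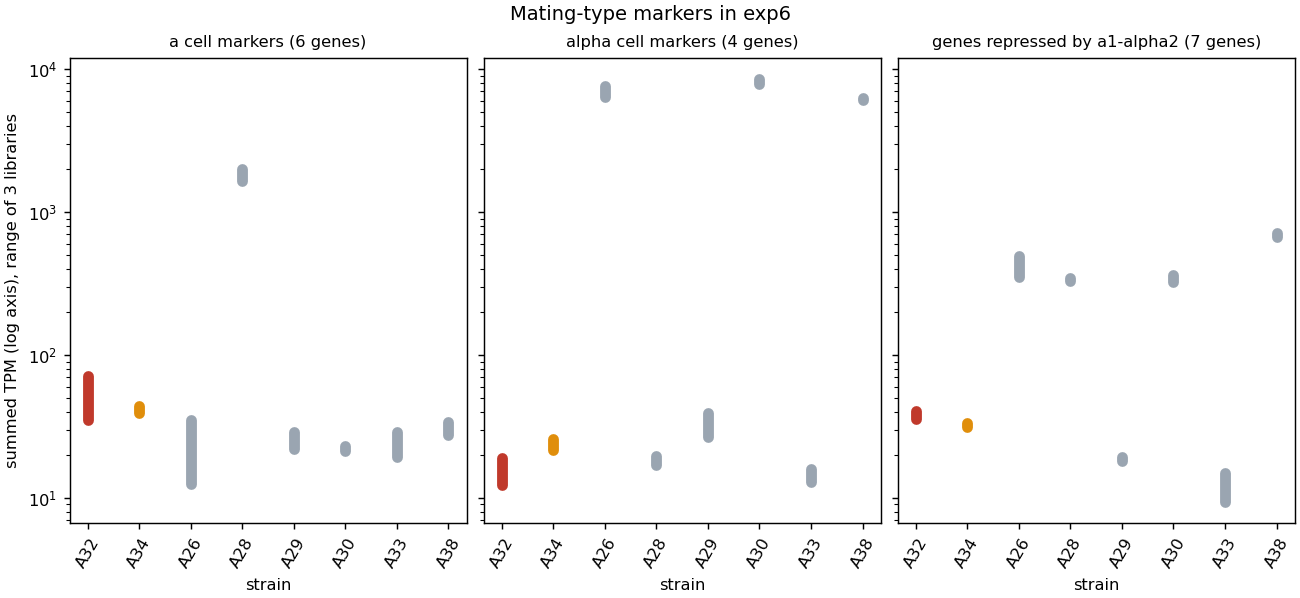
Summed TPM (log axis) of a cell, alpha cell and a1-alpha2-repressed genes in exp6 by strain, where bars span the 3 libraries. A32 and A34 lie at or below 71.0 in all 3 panels, A28 is high for a markers, A26, A30 and A38 for alpha markers, and A29 and A33 for none.

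On the shifted chromosomes, single genes departed from their chromosome in both directions. On chromosome I, the pheromone-regulated gene PRM9 rose by 0.83 ± 0.12 beyond its chromosome in exp6 and by 0.49 ± 0.14 in exp5, and FLC2, a gene for a putative membrane transporter of flavin, differed by -0.89 ± 0.07 and -0.61 ± 0.08. Relative to the library median, FLC2 differed by only -0.29 and -0.09. On chromosome II, which is low in A32 and A34 against the others, AAC3 and RTC2 rose, as described above, and YRO2, a gene for a plasma membrane protein, differed by -1.84 ± 0.11 and -1.29 ± 0.09. On chromosome VI, IRC7, an enzyme gene that releases sulfur from cysteine, differed by 0.97 ± 0.06 and 1.03 ± 0.17. On chromosome VII, VPS73, a mitochondrial protein gene linked to vacuolar sorting, differed by -1.03 ± 0.08 and -1.43 ± 0.09, without overlap in either experiment. On chromosome VIII, YHK8, a predicted drug transporter gene, had 4.43 to 4.67 in A32 and A34 in exp6, against 0.00 to 3.70 in the others, and differed by 2.15 ± 0.11 in exp6 and 2.17 ± 0.11 in exp5. COS8, a subtelomeric gene of a family with similar copies, differed by -1.19 ± 0.07 and -0.73 ± 0.07.

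In the chemostat, the libraries labelled A34 did not show the batch profile of A34 on every chromosome, so it is in doubt whether they are of the same strain. Relative to 2N, chromosomes VIII (0.48), IX (0.45), X (0.47) and XI (0.43) were high. Chromosome IV lay at -0.13 and -0.05 in its 2 libraries, and chromosome I at -0.02 in 1 library and 0.60 in the other. Relative to the 5 other strains, 125 of 5674 genes passed (2.2%), 55 higher (0.969%) and 70 lower (1.23%). The count rests on both libraries: without A34 replicate 1 it was 34 and without A34 replicate 2 it was 22, fits in which the spread of the single A34 library left is taken from the other strains. Of the 745 genes that were higher in both batch experiments and tested here, 21 were higher and 1 was lower, and of the 728 that were lower in both, 45 were lower and 2 were higher.

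In the chemostat libraries labelled A34 the stress-induced genes were low, and 1 amino acid gene passed. Of 84 stress-induced genes 20 fell and none rose, with a median of -0.62, and the list mean of A34, 1.12, was below that of all 5 other strains (1.53 to 2.46). YGP1 had 5.14 and 5.24 in A34, against 7.55 to 10.90 in the others, a difference of -3.28 ± 0.45 (adjusted p = 0.0015). DDR2 differed by -2.28 ± 0.44 (adjusted p = 0.017), SPI1 by -1.97 ± 0.37, MBR1 by -1.66 ± 0.26 and VPS73 by -1.45 ± 0.22, and the A34 libraries lay below all others for each of YGP1, DDR2, SPI1, MBR1 and VPS73, which held for 3.19% of all genes (above all others 3.38%). These calls rest on both libraries: without A34 replicate 2 DDR2 was at -1.34 (adjusted p = 0.351), and YGP1 (adjusted p = 0.0521) and MBR1 (adjusted p = 0.174) no longer passed either, while SPI1 and VPS73 lost their calls without either library. CTT1, which rose in exp6, fell here, with 5.47 and 5.80 in A34, against 6.51 to 9.74 in the others (-1.76 ± 0.41, adjusted p = 0.044), a call that was lost without either A34 library. Of 59 amino acid genes 1 rose and none fell, with a median of 0.16, and the list mean of A34, 2.66, lay below those of A24 (2.80) and A37 (2.79). HIS4 differed by 0.70 ± 0.26 (adjusted p = 0.25) and ANB1 by 0.88 ± 0.52 (adjusted p = 0.53). Ribosomal protein genes had medians of 0.73 for the large and 0.70 for the small subunit, and the list mean of the large subunit was 2.97 in 1 A34 library and 4.13 in the other, against 1.68 to 3.88 in single libraries of the other strains. RPL3 differed by 0.61 ± 0.34 and did not pass (adjusted p = 0.502). PHO11, a secreted acid phosphatase gene on chromosome I, had 11.94 and 12.75 in A34, against 7.68 to 11.98 in the others, and differed by 2.07 ± 0.24 (adjusted p = 0.00035). PHO11 is nearly identical to a gene on another chromosome, and its own chromosome differed between the A34 libraries. In exp6 the chromosome-relative difference of PHO11 was -0.85 and passed. It was -0.13 as measured there and -0.25 relative to the library median, and neither passed. Mating genes divided the chemostat strains too: all 9 alpha genes fell in A34, with a median of -1.80, and the haploid-specific list mean was -2.19 in A34, against -2.21 in A24 and -2.29 in A37 and up to 0.02 in A18, A22 and A38. Here too some passed the filter only through strains that express them, such as MF(ALPHA)2, with 0.39 to 2.15 TPM in A34.

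A32 and A34 were also compared with each other, in fits of all libraries of each experiment but with a contrast of fewer libraries. Of 5444 genes 220 passed in exp6 (4.04%), 131 higher and 89 lower in A32. In exp5 3 of 5375 passed (0.0558%), 2 higher and 1 lower. Their list means in exp6 differed most, among the lists named here, for iron (0.13 in A32 and 0.73 in A34), and were 0.82 in A32 and 0.50 in A34 for stress-induced genes and 1.87 in A32 and 1.64 in A34 for chaperones.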

How the data were processed

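Poly(A) RNA libraries of A32, A34 and the strains beside them were compared in 1 deposited table of 6692 genes in 176 libraries. Per the labels the authors give log2 expression, and the values behave as log2(TPM + 1); the reads were processed with STAR 2.5.3a and RSEM 1.3.0 on build sacCer3, per the submitters' processing notes. How RSEM split reads between paralogs sets the values of duplicated genes. The depth per library is unknown, so no interval for counting error is given.

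Genes with a mean of at least 2 were kept. Each value minus the median of the tested genes of its chromosome in that library entered a linear model (limma 3.58.1, R 4.3.3) that had 1 term per strain, a trend of the variance on the mean, and Benjamini-Hochberg adjustment over all genes tested. The contrast is the mean of A32 and A34 minus the mean of the other strains. Adjusted p-values throughout are from limma at a threshold of 0.05. In exp6 16 residual degrees of freedom remained, in exp5 12 and in the chemostat 10. The difference between exp6 and exp5 was fitted over their 8 shared strains. The pseudocount of 1 makes differences of genes with low TPM too small. The fit was tested on simulated data. Python 3.11.15 with numpy 2.4.6, pandas 2.3.3 and matplotlib 3.10.9 did the remainder.

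The members and the 42 gene lists were chosen with earlier results of these data known. Of 1302 names in the lists, 1298 matched the table. Genes were named from exp6 by a rule: the 12 largest increases and 12 largest decreases among called genes whose A32 and A34 libraries all lay above or below the others, 2 in each direction on each shifted chromosome, up to 3 called members of each described list, and HSP12, CTT1, TPS1, RPL3, RPS3, NOP1, PHO84 and PHO5, which made 87 genes. LEU2 and MAE1 fall outside it. Gene names and promoters are from RefSeq R64, in which 6008 of the 6692 genes were found. Replicate numbers did not pair libraries across strains.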

Additional observations from a re-analysis of the deposited data

Results flagged for a closer look

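In a few genes 1 library stood apart from the others of its group, judged by its gap as a share of the range. Such a gap can be small where the other libraries nearly coincide, as for ANB1 in exp5 (7.57 beside 7.39 to 7.42). In exp6 these were RTC2 in A34 replicate 3 (log2(TPM + 1) of 5.96), NRE1 in A34 replicate 3 (6.36), GAT1 in A32 replicate 2 (4.63), STE18 in A34 replicate 1 (0.59) and NOP10 in A34 replicate 1 (10.95). In exp5 they were ANB1 in A32 replicate 1 (7.57), MRP13 in A32 replicate 2 (5.16) and PIR3 in A32 replicate 1 (2.63). The median of chromosome VI minus the library median was -0.22 in A34 replicate 2 of exp5, apart from the other 3 libraries. These are 8 of 168 groups of gene values and 1 of 32 groups of chromosome medians, and chance flags about 1 in 20.

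The difference from the other strains itself differed between exp6 and exp5 in 30 of 81 named genes, by limma's test over the 8 shared strains (exp6 minus exp5, log2). Among stress and nutrient genes the value was 2.94 for HXK1, 1.94 for HSP42, 1.84 for CTT1, 1.13 for PHO84, 1.11 for PHM8, 1.05 for TPS1, 0.56 for SSA1, 0.38 for YGP1 and -0.48 for HSP12. Among the other genes with a positive value it was 1.17 for RTC2, 0.91 for CIT2, 0.89 for YHI9, 0.42 for FET4, 0.37 for VPS73 and 0.26 for LYS1. Among cell wall and subtelomeric genes it was -0.55 for PIR3, -0.42 for TIP1 and -0.42 for COS8. Among genes of ribosomes, nucleoli and RNA it was -0.58 for SNU13, -0.57 for RPL29, -0.51 for NOP10, -0.48 for MRP13, -0.40 for MRPL19, -0.28 for DBP2 and -0.25 for NOP1. It was -0.55 for SNO1, -0.53 for NRE1, -0.41 for CYC1, -0.37 for RPN4 and -0.31 for KAR2.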

How the results depend on the processing

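The number of genes called depends on the unit of replication and on the centring. With strain means as the replicates 4 genes were called in exp6, 36 in exp5 and 1 in both, and 83 of the 87 named genes lost their call in exp6. As measured, 3601 were called in exp6, 2760 in both and 429 in the chemostat, and with centring on the library median 3850 in exp6 and 3135 in both; both settings leave whole-chromosome shifts in the values. With A32 alone 1539 were called in exp6 and 805 in both. The chemostat gave 462 against all 8 other aneuploid strains, and 22 to 34 when 1 A34 library was left out. Leaving out 1 library gave 2049 to 2739 in exp6, 2419 to 2945 in exp5 and 1309 to 1625 in both, and leaving out 1 other strain 2151 to 2568, 2770 to 3037 and 1307 to 1559. With a replicate block the counts were 2347, 2863, 1443 and 98 (exp6, exp5, both, chemostat), but same-numbered libraries did not pair: correlations of their deviations ran from -0.26 to 0.28, from -0.44 to 0.43 and from -0.58 to 0.49 in exp6, exp5 and the chemostat. No filter and a pseudocount of 0.1 kept these 4 counts within 1.5 times, as did a filter at a mean of 4 (1819, 2228, 1119 and 101), which tests fewer genes. Under that filter genes called higher numbered 1065 in exp5, beside 1685, and 499 in both, beside 751, so that 47.8% of the calls in exp5 were higher, beside 58.2%.

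Some directions turned. As measured in exp6, differences were 0.11 for NOP10, 0.094 for SSA1, 0.052 for KAR2, 0.35 for RPN4, 0.22 for RPN2 and 0.48 for NOP1, and relative to the library median 0.23 for RPN4, 0.10 for RPN2 and 0.36 for NOP1. In exp5, as measured and relative to the library median, they were -0.25 and -0.18 for RPL29, 0.091 and 0.15 for INH1, 0.014 and 0.074 for CYC1, 0.24 and 0.30 for KAR2, 0.021 and 0.081 for RPN2 and -0.18 and -0.12 for PHO5. These settings leave the chromosome's own shift in the value. When each other strain was left out, STE2 ran from -0.54 (without A33) to 0.48 (without A28) in exp6 and from -0.31 (without A30) to 0.31 (without A28) in exp5. The median of the a cell marker list ran from -0.50 (without A26) to 0.39 (without A28) in exp6 and from -0.46 (without A30) to 0.25 (without A28) in exp5. Chromosome I in the chemostat was at 0.58 without A34 replicate 1 and at -0.0064 without A34 replicate 2, relative to the other strains.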
